A study of Mus musculus with 12 samples.

Results

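The mitochondrially encoded transcripts are the RNAs copied from the small circular genome inside mitochondria. They were taken as every gene whose name starts with mt- in the deposited expression table, with rows summed per gene name. This gave 37 of 55678 gene names, each on 1 row: 13 protein-coding genes, 2 ribosomal RNA (rRNA) genes and 22 transfer RNA (tRNA) genes. RNA sequencing of the medial prefrontal cortex compared 2 inbred mouse strains with and without chronic restraint stress (CRS). The strains were C57BL/6JmsSlc, here B6, and BALB/cCrSlc, here BALB/c. The 12 libraries formed 4 groups of 3, which were B6 control, B6 CRS, BALB/c control and BALB/c CRS. Mice of the CRS groups spent 6 h of each of 21 days in restrainers, and control mice were handled but not restrained. All mice were 9 to 10 weeks old and had gone through behavioural tests before a 1.5 mm punch of cortex was taken, so every group shared the tests. The libraries came from a stranded kit for messenger RNA, which captures poly(A) tails. A punch holds every cell type of the region together, and the labels used here give neither the sex nor the litter of the mice.

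Each strand of the mitochondrial genome is transcribed as a long RNA, which is cut at the tRNAs lying between the other genes. Most of the freed messenger RNAs receive short poly(A) tails. The messenger RNAs encode core subunits of the respiratory chain (complexes I, III and IV) and of the ATP synthase (complex V). The rest of each complex, and all proteins that copy, cut, stabilise and translate these RNAs, are encoded in the nucleus, and the cortex depends on this chain for the ATP behind synaptic signalling.

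Levels are given in TPM, an abundance per transcript length scaled to 1000000 per library. Ranks and shares of genes below are those of the listed TPM, without the nuclear copies of members described further below. Copies that differ by 1 base in the aligned part were listed at 4962 to 7623 TPM for mt-Nd3 and 6068 to 8659 TPM for mt-Co1. The ranks of these members thus depend on an uncertain split between member and copy. The part of poly(A) capture and of the length correction in differences between genes was not tested. The 15 protein-coding and rRNA genes were present in all 12 libraries, and all 22 tRNA genes (59 to 75 bases long) were listed at 0 in all 12. Whether the kit could capture RNAs this short was not tested, so a listed 0 does not show that a tRNA was absent. The tRNAs sit between genes with signal. The valine tRNA mt-Tv (chrM:1025-1093, plus strand, GRCm38) lies between the 2 rRNA genes, and the arginine tRNA mt-Tr (chrM:9808-9875, plus strand) lies between mt-Nd3 and mt-Nd4l. Both are shown here in full as examples of the members without signal, from the GENCODE M21 transcripts.
mt-Tv: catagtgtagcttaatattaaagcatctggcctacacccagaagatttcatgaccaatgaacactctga
mt-Tr: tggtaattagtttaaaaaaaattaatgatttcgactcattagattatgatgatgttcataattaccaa

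The libraries as a whole held 14805 to 15542 genes at 1 TPM or more. Markers of cortical neurons summed to 1969 to 4181 TPM. That list includes Snap25, Gad1 and Gad2, which neurons outside the cortex also express, so the sum does not by itself identify cortex. Myelin markers summed to 2495 to 9544 TPM in B6 and 474 to 3037 TPM in BALB/c, and striatal markers to 189 to 2638 TPM in B6 and 92.6 to 344 TPM in BALB/c. The library of BALB/c CRS replicate 12 stood apart. A gene of the cytosolic 18S rRNA made up 3.97% of its TPM against 0.031% to 0.169% elsewhere, and the noncoding RNA Rn7sk was at 417 TPM against 3.45 to 31.4 TPM.

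Mitochondrially encoded RNA made up 17.4% to 23.9% of all TPM. The share was 19.8% ± 1.18 in B6 controls, 20.1% ± 2.46 in B6 CRS, 23.1% ± 0.82 in BALB/c controls and 21.5% ± 1.78 in BALB/c CRS (mean ± SD, n = 3 each). BALB/c controls (22.3%, 23.3% and 23.9%) all lay above B6 controls (18.9%, 19.4% and 21.1%), a difference of 3.33 percentage points against a spread within groups of 1.68 points (SD). Under restraint the strains overlapped and differed by 1.38 points, which ranged from -0.013 without B6 CRS replicate 14 to 2.31 without B6 CRS replicate 13. The share differed between restrained and control mice by 0.346 points in B6 and by -1.60 points in BALB/c, with overlapping groups in both. In B6 this was -0.577 points without CRS replicate 13 and 1.74 without CRS replicate 14, and in BALB/c -2.60 without CRS replicate 12 and -0.923 without CRS replicate 13. The overlap in BALB/c rested on CRS replicate 12 alone (23.5%). CRS replicates 13 (20.2%) and 15 (20.9%) lay below all BALB/c controls. In bulk tissue, fewer cells of a type and less RNA per cell cannot be told apart. Astrocyte markers summed to 988 to 1168 TPM in the B6 libraries and to 717 to 892 TPM in those of BALB/c, with no overlap, while the myelin and striatal sums given above reached lower in BALB/c and overlapped. The part of these cell types in the strain differences was not tested.

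The 5 most abundant members were mt-Atp8, mt-Atp6, mt-Co2, mt-Co3 and mt-Co1, which together held 67.0% to 70.0% of the mitochondrial total in every library. Complex V genes held 37.2% ± 1.43 of that total, complex IV genes 31.3% ± 1.11, complex I genes 21.0% ± 0.653, complex III 6.06% ± 0.423 and the rRNAs 4.51% ± 0.889 (mean ± SD over 12 libraries). The order was the same in all 12 libraries for 7 of the 14 pairs of neighbours. It was not fixed between mt-Co3 and mt-Co1 (mt-Co3 higher in 9 of 12), between mt-Nd4l and mt-Nd1 (mt-Nd4l higher in 7 of 12), between mt-Rnr1 and mt-Rnr2 (mt-Rnr1 higher in 3 of 12) or between mt-Rnr2 and mt-Nd5 (mt-Rnr2 higher in 10 of 12). The orders mt-Cytb over mt-Nd4l, mt-Nd4 over mt-Nd2 and mt-Nd2 over mt-Rnr1 each held in 11 of 12.

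**Figure D1:**
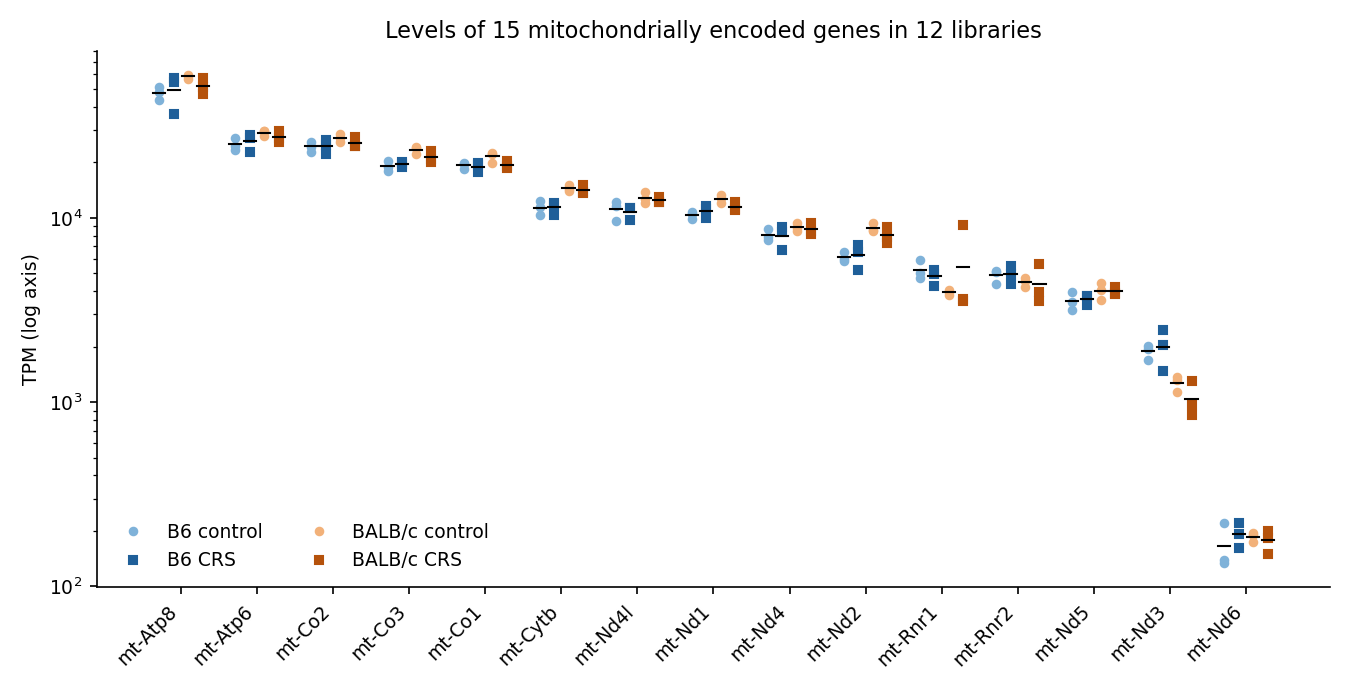
TPM of the 15 protein-coding and rRNA members on a log axis, ordered by mean level; each point is a library, colours mark the 4 groups and black bars mark group means of 3 libraries. Levels run from 59421 TPM for mt-Atp8 to 135 TPM for mt-Nd6, and the 4 groups lie close together for most genes, with mt-Nd3 lower and mt-Nd2 higher in both BALB/c groups.

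Complex V takes 2 subunits of its membrane part from the mitochondrial genome. mt-Atp8 was the most abundant member, with 51029, 48001 and 43813 TPM in the B6 controls, 54693, 57540 and 36505 in B6 CRS, 56956, 59421 and 59019 in BALB/c controls and 57490, 47131 and 51217 in BALB/c CRS. Its lowest and highest values under restraint in B6 were farther apart than in any other group, and no comparison called it. mt-Atp6, which encodes the subunit lining the proton path, ran from 22670 to 29735 TPM. The ratio of mt-Atp8 to mt-Atp6 stayed between 1.61 and 2.05. These genes overlap by 43 bases (chrM:7927-7969, plus strand) with no tRNA between them, and the RNA from this stretch belongs to both. Whether both genes were carried on the same RNA was not tested, so their ratio need not compare separate transcripts. The whole of mt-Atp8 (204 bases, chrM:7766-7969) is printed with the annotated overlap in capitals.
mt-Atp8: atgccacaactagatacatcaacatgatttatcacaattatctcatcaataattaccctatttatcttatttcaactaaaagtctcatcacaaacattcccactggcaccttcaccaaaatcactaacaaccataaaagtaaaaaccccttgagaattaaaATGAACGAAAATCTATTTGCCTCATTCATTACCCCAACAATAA

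Complex IV, the oxidase that passes electrons to oxygen, has its 3 core subunits here. mt-Co1, the catalytic subunit, ran from 17773 to 22384 TPM, mt-Co2, which takes electrons from cytochrome c, from 22074 to 28567 TPM, and mt-Co3 from 17982 to 24061 TPM. Complex III has a single mitochondrially encoded subunit, cytochrome b, and mt-Cytb ran from 10374 to 15083 TPM. Complex I has 7, which spanned the widest range: mt-Nd4l reached 13830 TPM and mt-Nd1 13245 TPM, mt-Nd4 ran from 6720 to 9359 TPM, mt-Nd2 from 5232 to 9328 TPM, mt-Nd5 from 3171 to 4419 TPM, mt-Nd3 from 850 to 2450 TPM and mt-Nd6 from 135 to 221 TPM. mt-Nd4l and mt-Nd4 overlap by 7 bases, also with no tRNA between them. Their ratio stayed between 1.26 and 1.52 and likewise need not compare separate transcripts.

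mt-Nd6 is the only protein-coding member on the minus strand (chrM:13552-14070) and was the least abundant. Its values were 221, 139 and 135 TPM in the B6 controls, 193, 221 and 162 in B6 CRS, 174, 191 and 194 in BALB/c controls and 184, 150 and 199 in BALB/c CRS. All groups overlapped. It ends in 14 bases that lie opposite the end of mt-Nd5, and mt-Nd5 stood 15.8 to 29.4 times higher. Whether strand was used in the authors' quantification is not given in the sources used here. How well the poly(A) kit captured mt-Nd6 was not tested. The ends of the messenger RNAs also differ in sequence. The coding parts of mt-Co3, mt-Cytb and mt-Nd4 end in a lone T, and their lengths (784, 1144 and 1378 bases) are 1 more than a multiple of 3. In such genes the stop codon is known to be completed by the poly(A) tail. The last 30 bases of these 3 and of mt-Nd6, which carries its own stop, are shown with the end in capitals.
mt-Co3: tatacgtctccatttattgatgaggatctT
mt-Cytb: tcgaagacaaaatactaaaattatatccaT
mt-Nd4: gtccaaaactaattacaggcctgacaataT
mt-Nd6: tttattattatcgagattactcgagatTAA

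Much of the spread between libraries was shared by the members. As a share of the mitochondrial total, 13 of 15 members varied less across the 12 libraries than as TPM. mt-Atp6 had a coefficient of variation of 8.75% in TPM and of 1.79% as a share (12.3% to 13.1% of the mitochondrial total), and mt-Nd4 had 8.93% and 3.17%. The exceptions were mt-Nd3 (31.4% in TPM, 33.5% as a share) and mt-Rnr2 (13.1% and 13.9%). The listed mt-Nd3 depends on its split from the nuclear copy Gm28438, described below. The sum of mt-Nd3 and that copy was 7772 ± 831 TPM (mean ± SD over 12 libraries). mt-Rnr1, at 28.1%, and mt-Nd2, at 10.5%, also varied more as shares than the neighbouring mt-Nd4 in the order of levels.

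The comparison of BALB/c with B6 controls asks how the strains differ without restraint. Calls are those of a limma fit of log2(TPM + 1) over 16423 genes with a Benjamini-Hochberg adjusted p under 0.05, and log2 differences below are on that scale. Of the 15 members tested, 1 was called higher in BALB/c, mt-Nd2, and none lower, where 4.73% of all genes tested were called (1.36% higher and 3.37% lower). Members had a median log2 difference of 0.21, against -0.10 over all genes, and 12 of 15 values were above 0. That direction held with 13 of 15 under median-of-ratios scaling and 12 of 15 after rescaling to the nuclear total. The latter raises values more where the mitochondrial share is higher, as in BALB/c controls, so it could not weaken that direction. The members share libraries and the total, so these signs are not independent of each other. After rescaling to the mitochondrial total 5 of 15 were above 0. That rescaling divides the members by their own sum and takes out a shared direction, so it cannot test that direction. Median-of-ratios scaling moved the median of all genes from -0.10 to 0.01, and rescaling to the mitochondrial total moved it to -0.30. At an unadjusted p under 0.05 there were 5 of 15 members, against 18.7% of all genes. In 7 members every BALB/c control lay above every B6 control (mt-Atp6, mt-Atp8, mt-Co1, mt-Co3, mt-Cytb, mt-Nd1 and mt-Nd2), and in 2 every one lay below (mt-Nd3 and mt-Rnr1). Over all genes tested, 22.9% had groups that did not overlap, 4.16% above and 18.7% below.

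mt-Nd2 (chrM:3914-4951, plus strand, 1038 bases) encodes a subunit of the proton-pumping arm of complex I. The B6 controls had 6519, 5823 and 5963 TPM, with 6530, 7110 and 5232 in B6 CRS, 8541, 8514 and 9328 in BALB/c controls and 8883, 7310 and 7890 in BALB/c CRS. All 6 BALB/c libraries lay above all 6 B6 libraries. The log2 difference was 0.53 in controls (SE 0.12, adjusted p 0.02865, limma) and 0.36 under restraint (SE 0.12, adjusted p 0.09634, limma), the latter past no threshold. As a share of the mitochondrial total it was 3.08% ± 0.003 in B6 controls and 3.80% ± 0.127 in BALB/c controls (SD, n = 3 each). Its ratio to mt-Nd1, the messenger RNA upstream of it, was 0.524 to 0.611 in the 6 B6 libraries and 0.663 to 0.728 in the 6 BALB/c libraries.

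The call of mt-Nd2 in controls was not stable. It was lost with median-of-ratios scaling (adjusted p of 0.06937, limma), after rescaling to the mitochondrial total (log2 difference 0.30, adjusted p 0.07464, limma), with no filter on low genes (adjusted p 0.3571, limma) and without any 1 of B6 control replicate 3, BALB/c control replicates 5, 9 and 10 and BALB/c CRS replicate 15 (adjusted p up to 0.1242, limma). The log2 difference stayed between 0.30 and 0.65 over all 22 alternatives.

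mt-Cytb and mt-Co3 came next among the higher members. mt-Cytb stood at 12288, 10374 and 11406 TPM in the B6 controls, 11705, 12099 and 10411 in B6 CRS, 13915, 14339 and 15083 in BALB/c controls and 15039, 13640 and 13720 in BALB/c CRS. Here too the 6 BALB/c libraries lay above the 6 B6 libraries, in TPM and as a share of the mitochondrial total (5.48% to 6.00% in B6, 6.17% to 6.76% in BALB/c). The log2 difference was 0.35 in controls (adjusted p 0.07579, limma) and 0.31 under restraint (adjusted p 0.08169, limma), short of the threshold in both. mt-Co2 did not keep step with it. The ratio of mt-Co2 to mt-Cytb was 2.11 to 2.20 in B6 controls and 1.86 to 1.90 in BALB/c controls. mt-Co3 differed by 0.30 (adjusted p 0.1069, limma) and mt-Nd1 by 0.29 (adjusted p 0.1139, limma) in controls, and the remaining uncalled protein-coding members other than mt-Nd3 by 0.15 to 0.30. With genes limited to a mean of at least 5 TPM, mt-Cytb (adjusted p 0.04006, limma) and mt-Co3 (adjusted p 0.04611, limma) were called as well.

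**Figure D2:**
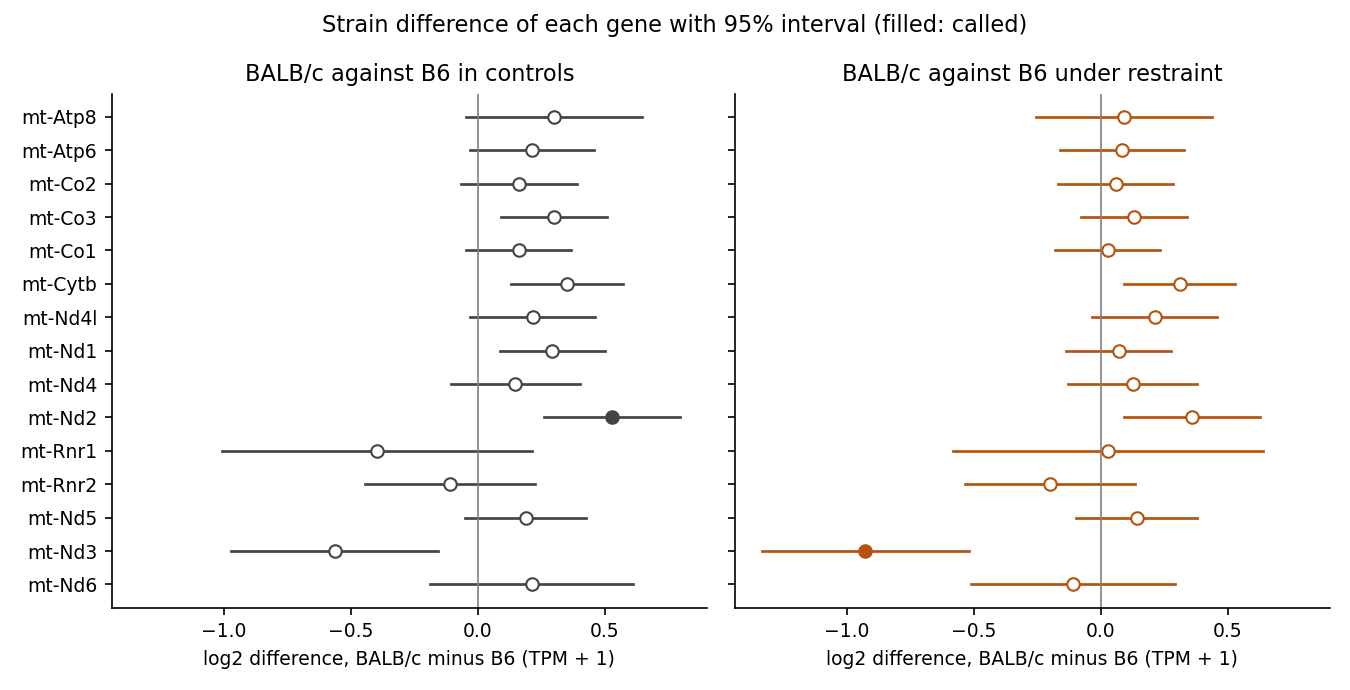
Log2 difference of BALB/c minus B6 for the 15 members, in controls (left) and under restraint (right), with 95% intervals from the limma fit; filled points are called at an adjusted p under 0.05. mt-Nd2 is called in controls (0.53) and mt-Nd3 under restraint (-0.93). Most other points lie a little above 0 in TPM. Rescaling to the mitochondrial total, which takes out a shared direction, puts 10 of 15 members below 0 in controls.

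Under restraint, the comparison of strains again called 1 of the 15 members, mt-Nd3, here lower in BALB/c. Among all genes tested 7.7% were called (2.37% higher and 5.33% lower). At an unadjusted p under 0.05 there were 3 of 15 members, against 23.8% of all genes. The members' median log2 difference was 0.08, against -0.06 over all genes, and 12 of 15 values were above 0 (7 of 15 without B6 CRS replicate 14). After rescaling to the mitochondrial total, which takes out a shared direction, 6 of 15 were above 0. As in controls, these signs are not independent of each other. In 5 members (mt-Co3, mt-Cytb, mt-Nd2, mt-Nd4l and mt-Nd5) every BALB/c library lay above every B6 library, which 9.29% of all genes did, and in mt-Nd3 every one lay below, which 20% of all genes did (29.3% in either direction).

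mt-Nd3 (chrM:9459-9806, plus strand, 348 bases) encodes a small membrane subunit of complex I. Its levels were 2017, 1936 and 1702 TPM in the B6 controls, 2036, 2450 and 1475 in B6 CRS, 1362, 1141 and 1322 in BALB/c controls and 1303, 850 and 964 in BALB/c CRS. All 6 BALB/c libraries lay below all 6 B6 libraries. The log2 difference was -0.93 under restraint (SE 0.19, adjusted p 0.01203, limma) and -0.56 in controls (SE 0.19, adjusted p 0.1215, limma), so only the first was called. After rescaling to the mitochondrial total, both passed the threshold, at -1.03 (adjusted p 0.0008062, limma) and -0.79 (adjusted p 0.006403, limma), where 6.68% and 7.27% of all genes were called. The call under restraint was lost without B6 CRS replicate 12 (-0.89, adjusted p 0.05141, limma) and without BALB/c CRS replicate 13 (-0.79, adjusted p 0.05376, limma).

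The nuclear genome holds a near-complete copy of mt-Nd3, the pseudogene Gm28438 (chr1:24612775-24613119, minus strand, GRCm38, 345 bases), which is 99.71% identical to it. Over the aligned 345 bases the only difference is T3C, counted from 1 at the 5′ end of mt-Nd3, at position 9461 of the mitochondrial genome. Outside this base, a read that lies within the shared stretch matches both genes equally well. The first 38 bases of each are shown with that base in capitals, from the GENCODE M21 transcripts.
mt-Nd3: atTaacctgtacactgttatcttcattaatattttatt
Gm28438: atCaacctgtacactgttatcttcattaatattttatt

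Gm28438 was listed above mt-Nd3 in every library. It had 6451, 5404 and 5100 TPM in the B6 controls, 5989, 6016 and 4962 in B6 CRS, 6526, 7623 and 7507 in BALB/c controls and 6964, 5949 and 6218 in BALB/c CRS. In controls it lay higher in all BALB/c libraries, the opposite side from mt-Nd3, at a log2 difference of 0.36 (adjusted p 0.1329, limma). mt-Nd3 made up 22.9% to 28.9% of the sum of both in B6 and 12.5% to 17.3% in BALB/c. The sum itself was 7537 ± 850 TPM in B6 controls, 7643 ± 1068 in B6 CRS, 8494 ± 526 in BALB/c controls and 7416 ± 761 in BALB/c CRS (SD, n = 3 each), with overlapping strains. With each member summed with its nuclear copies before the fit, the strain difference of mt-Nd3 was -0.04 under restraint (adjusted p 0.8908, limma) and turned to 0.18 in controls (adjusted p 0.5122, limma). In TPM, the lower level in BALB/c was thus seen in the listed mt-Nd3 and not in the sum. Most of that sum was Gm28438, so it can hide a difference in mt-Nd3. Relative to mt-Nd2, the sum was lower in every BALB/c library than in every B6 library. The mean ratio was 1.233 in B6 controls, 1.217 in B6 CRS, 0.967 in BALB/c controls and 0.924 in BALB/c CRS (n = 3 each). mt-Nd2 itself lay higher in BALB/c, so this ratio alone does not show a lower sum. Which base the 2 strains carry at position 9461 was not analysed here.

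**Figure D3:**
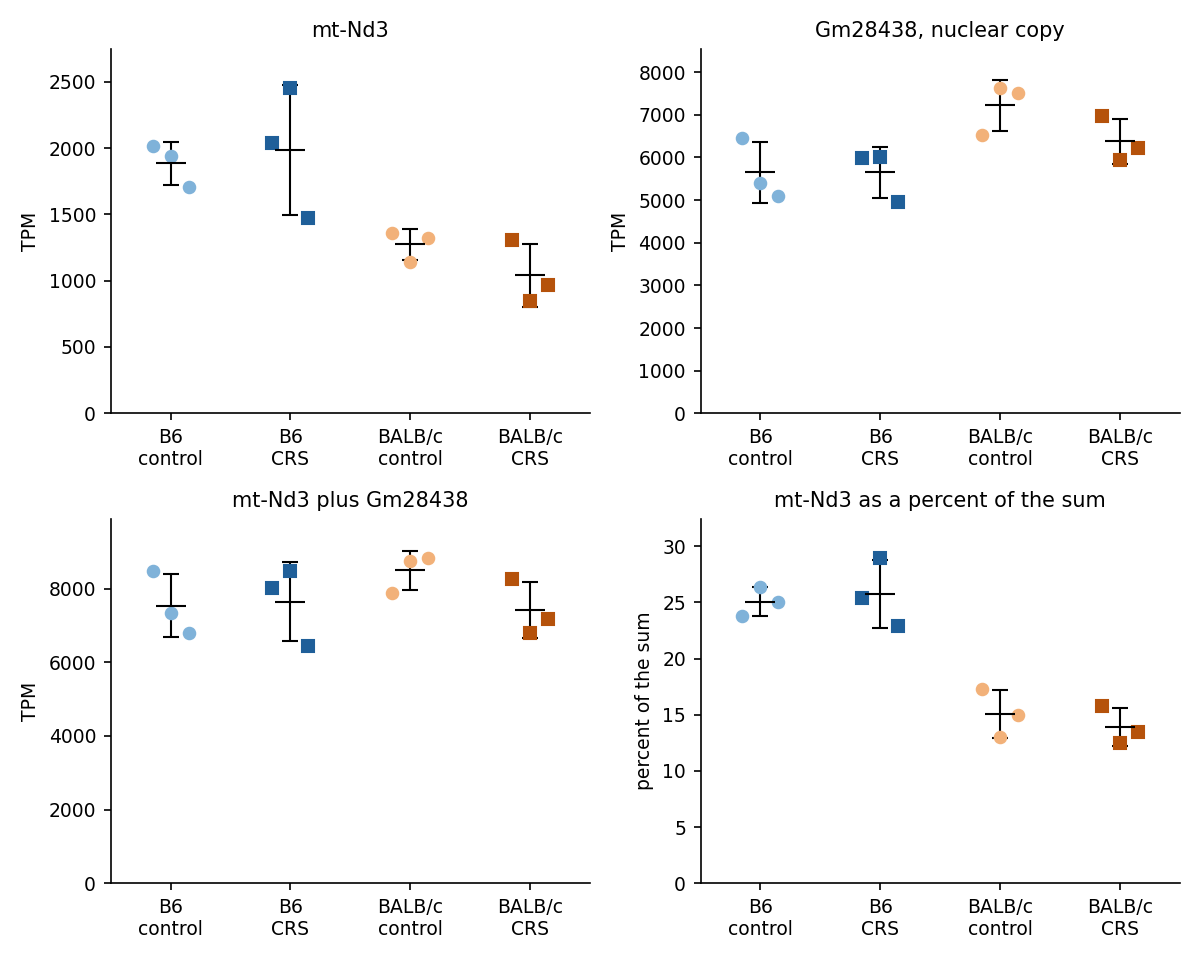
TPM of mt-Nd3, of its nuclear copy Gm28438 and of their sum, and mt-Nd3 as a percent of the sum, by group; points are libraries, black lines the mean and SD of 3 libraries, and all axes start at 0. mt-Nd3 and its percent of the sum are lower in all BALB/c libraries, while the sum overlaps between strains.

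Such nuclear copies were searched for every member by aligning its GENCODE M21 transcript to all others, at 95% identity over at least 80% of the shorter. The search found 11 annotated copies of 9 protein-coding members and none of mt-Nd1, mt-Cytb, mt-Nd6, mt-Atp8 or the rRNAs. Of these, 8 reached a mean of 1 TPM in a group, and the copies together held 1.24% to 1.75% of all TPM. A run of 7 copies lies on chromosome 1 between 24611535 and 24616197 on the minus strand. Gm29216 (492 bases), 99.793% identical to the last part of mt-Co1, was listed at 6068 to 8659 TPM. It differs from mt-Co1 in the aligned part only by A1066T, counted from the 5′ end of mt-Co1. This window of 39 bases is shown for both, with that base in capitals, because no other base of the aligned part tells this member from its highly listed copy.
mt-Co1: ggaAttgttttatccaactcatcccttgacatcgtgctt
Gm29216: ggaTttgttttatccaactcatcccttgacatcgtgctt

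The other copies were listed lower. Gm28661, identical to mt-Co2 over 681 bases, was at 338 to 928 TPM and Gm10925, identical to mt-Atp6 over 678 bases, at 0 to 1145 TPM. Gm28437, identical to mt-Co3 over 783 bases, was listed at 0 in 10 of 12 libraries, Gm10222, a copy of mt-Nd4l, reached 52.2 TPM, Gm13340 (mt-Co1) 3.77 TPM and Gm13341 (mt-Co2) 1.73 TPM. Values of a member and an identical copy cannot be told apart by sequence, so their split is uncertain. Of the 7 copies that could be tested, 0 were called in any comparison (limma); at an unadjusted p under 0.05 there was 1 in controls and 1 under restraint between strains. The only copy of mt-Nd2, Gm13339, stayed at or below 0.296 TPM. The summed fit kept mt-Nd2 called in controls.

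The mitochondrial ribosome contains 2 rRNAs, the small mt-Rnr1 (chrM:70-1024, plus strand) and the large mt-Rnr2 (chrM:1094-2675, plus strand). mt-Rnr1 had 5892, 5033 and 4722 TPM in the B6 controls, 4935, 5224 and 4275 in B6 CRS, 3819, 3956 and 4051 in BALB/c controls and 9121, 3518 and 3640 in BALB/c CRS. A single library, BALB/c CRS replicate 12, was above all others, and the other 5 BALB/c libraries were below all 6 B6 libraries. mt-Rnr2 ran from 4384 to 5114 TPM in the B6 controls, 4398 to 5455 in B6 CRS, 4226 to 4697 in BALB/c controls and 3548 to 5600 in BALB/c CRS, with replicate 12 again the highest. The ratio of mt-Rnr1 to mt-Rnr2 was 1.63 in replicate 12 and 0.863 to 1.16 in the other 11 libraries. That library is also the one with the high 18S rRNA and Rn7sk, and the part of these in the rRNA values was not tested.

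As a share of the mitochondrial total, the rRNAs made up 5.09% ± 0.342 in B6 controls, 4.85% ± 0.156 in B6 CRS, 3.65% ± 0.029 in BALB/c controls and 4.46% ± 1.55 in BALB/c CRS (SD, n = 3 each). The 3 BALB/c controls (3.62% to 3.67%) lay below the 3 B6 controls (4.71% to 5.36%). In BALB/c CRS the values were 6.25% in replicate 12, 3.50% in replicate 13 and 3.63% in replicate 15. The strains differed by -1.44 percentage points in controls. Under restraint the difference was -0.385 points with replicate 12 and -1.28 points without it, and the restraint difference in BALB/c changed from 0.813 to -0.082 points. Neither rRNA was called between strains. In controls the log2 difference was -0.40 for mt-Rnr1 (adjusted p 0.498, limma; 0.06744 without replicate 12) and -0.11 for mt-Rnr2 (adjusted p 0.7616, limma). Under restraint mt-Rnr1 moved from 0.03 (adjusted p 0.9678, limma) to -0.42 without replicate 12 (adjusted p 0.09523, limma), and mt-Rnr2 from -0.20 to -0.39 (adjusted p 0.1163, limma).

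**Figure D4:**
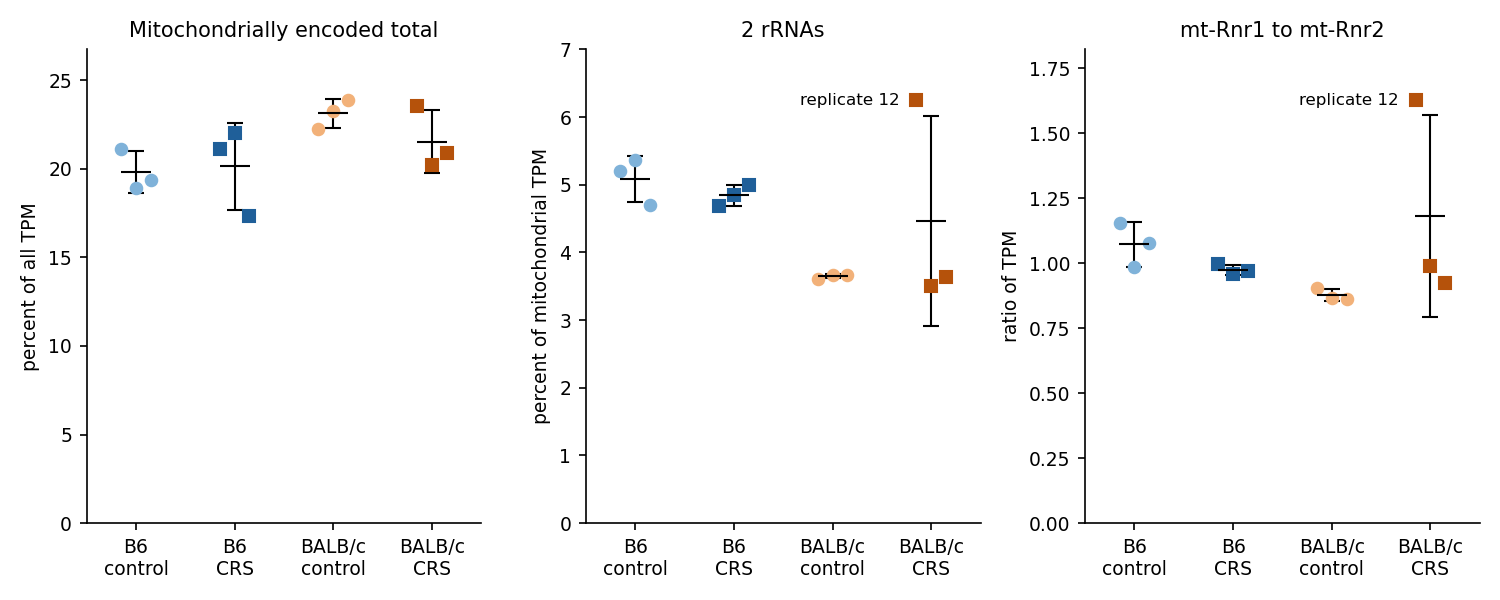
Mitochondrially encoded total as a percent of all TPM (left), the 2 rRNAs as a percent of the mitochondrial total (middle) and the ratio of mt-Rnr1 to mt-Rnr2 (right); points are libraries, black lines the mean and SD of 3 libraries, and axes start at 0. BALB/c controls lie above B6 controls in the total and below them in the rRNA share, and BALB/c CRS replicate 12 stands apart in the middle and right panels.

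The comparison of CRS with control asks what restraint changed within each strain. No member was called in B6 (0 of 15; 0% of all genes) or in BALB/c (0 of 15; 0.00609% of all genes, that is 1 gene), and no member had an unadjusted p under 0.05 in either, where 4.82% and 3.03% of all genes did (limma). Restraint and control groups overlapped for all 15 members in both strains, where 8.33% of all genes in B6 and 7.39% in BALB/c had groups that did not. In BALB/c the overlap rested on CRS replicate 12 alone for mt-Atp6, mt-Atp8, mt-Co1, mt-Co2, mt-Co3, mt-Cytb, mt-Nd1, mt-Nd2, mt-Nd3 and both rRNAs. It did not for mt-Nd4, mt-Nd4l, mt-Nd5 and mt-Nd6. How many of all genes depend on that library in this way was not counted. In B6 the log2 differences ran from -0.12 for mt-Rnr1 to 0.24 for mt-Nd6, with a median of 0.03 against 0.00 over all genes. The level of mt-Nd6 was 165 ± 48.6 TPM in the B6 controls and 192 ± 29.4 TPM in B6 CRS (SD, n = 3 for both).

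In BALB/c all 13 protein-coding members had values below 0, from -0.01 for mt-Nd5 to -0.31 for mt-Nd3, with a median of -0.10 against 0.05 over all genes. None passed the test. Without BALB/c CRS replicate 13 or without BALB/c control replicate 10, 10 of the 13 were below 0, and without CRS replicate 12 or control replicate 5, 12 were. The median of the 15 members, -0.08, was -0.15 without CRS replicate 12 and -0.04 without CRS replicate 13. Over all genes these medians were 0.12 and -0.001. After rescaling to the mitochondrial total, which takes out a shared direction, 9 of the 15 members had values above 0. The members share libraries and the total, so these values are not independent of each other. Members with the smallest intervals were mt-Co1 (-0.16, 95% interval -0.36 to 0.05), mt-Nd1 (-0.15, -0.36 to 0.06) and mt-Co3 (-0.13, -0.34 to 0.08). The lower ends of these intervals are falls that these libraries do not exclude. The level of mt-Co1 was 21534 ± 1380 TPM in the BALB/c controls and 19300 ± 865 TPM in BALB/c CRS (SD, n = 3 for both). mt-Rnr1 was the single member above 0 (0.31, interval -0.30 to 0.92), and its mean rests on replicate 12.

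**Figure D5:**
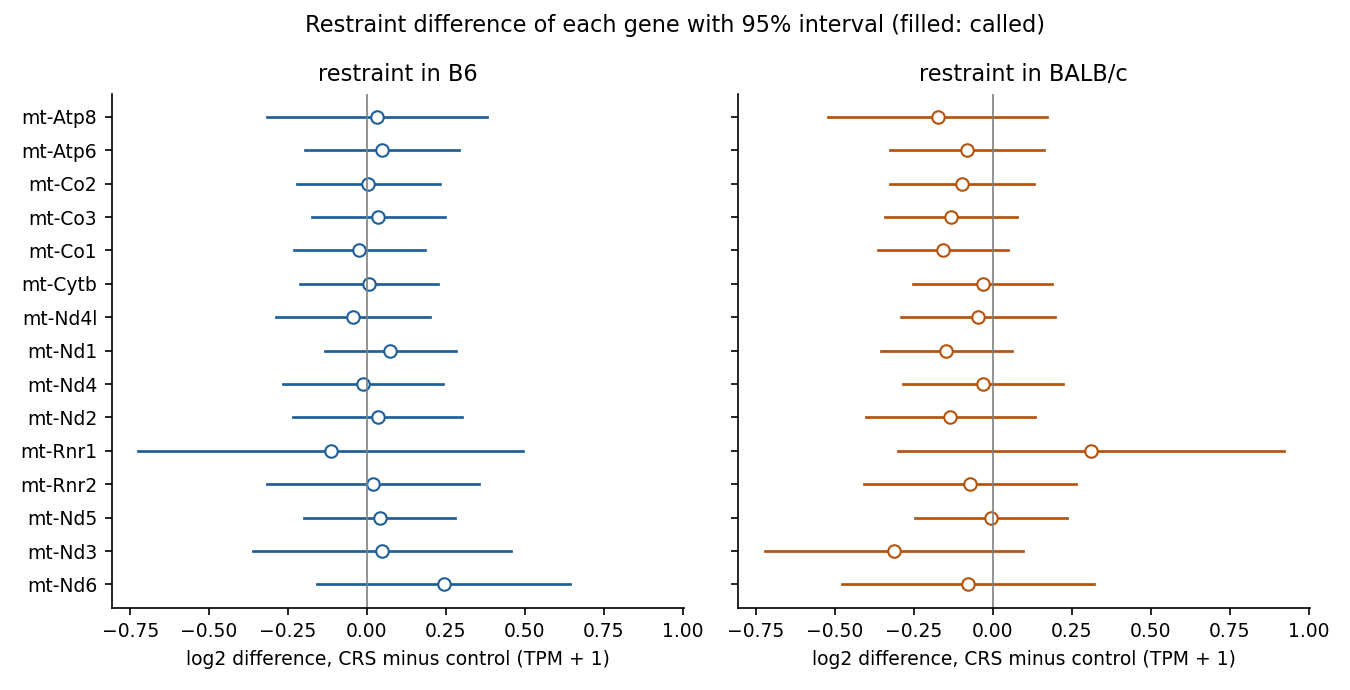
Log2 difference of CRS minus control for the 15 members in B6 (left) and BALB/c (right), with 95% intervals from the limma fit; open points did not pass an adjusted p under 0.05. Every interval includes 0, and the points of the protein-coding members in BALB/c lie between -0.31 and -0.01 in TPM.

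Neither the difference between these restraint effects nor their average called a member (0 of 15 in each; 0% and 0.00609% of all genes; 0 members at an unadjusted p under 0.05, against 2.7% and 5.17% of all genes, limma). The interaction ran from -0.36 for mt-Nd3 (interval -0.94 to 0.22) to 0.43 for mt-Rnr1 (interval -0.44 to 1.29). Thus mt-Nd2, called between strains only in controls, and mt-Nd3, called only under restraint, were not shown to differ between the 2 conditions (interaction -0.17 and -0.36, adjusted p 0.9999 for each, limma).

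The nuclear genes that serve these transcripts were read in 8 lists of 95 genes, all of which could be tested. Under restraint 0 of 95 were called in either strain (limma), with 1 gene in B6 (the assembly factor Ndufaf4, log2 0.28, adjusted p 1) and 4 in BALB/c (Fastkd5, Slirp, Supv3l1 and Tfam) at an unadjusted p under 0.05. Among all genes tested, 4.82% in B6 and 3.03% in BALB/c were under that p. The lowest p in BALB/c were those of Fastkd5, which helps to process mitochondrial messenger RNAs without flanking tRNAs (-0.48, unadjusted p 0.006754), and Slirp, part of the complex that stabilises mitochondrial messenger RNAs (0.34, unadjusted p 0.00775), both with an adjusted p of 1 (limma). Tfam, which packages mitochondrial DNA and starts its transcription, differed by -0.33 (unadjusted p 0.03647, adjusted p 1, limma).

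Between strains in controls, 0 of the 95 were higher and 3 lower in BALB/c, close to the 3.37% called lower among all genes. They were Mterf3, a regulator of mitochondrial transcription and ribosome assembly (19.3 to 33.9 TPM in B6 controls, 14.4 to 16.1 in BALB/c controls; log2 -0.80, adjusted p 0.03547, limma), the translation release factor Mtrf1l (6.12 to 11.2 and 2.69 to 4.63 TPM; -0.93, adjusted p 0.02887, limma), and the complex I assembly factor Ndufaf7 (35.6 to 47.7 and 25.4 to 32.0 TPM; -0.54, adjusted p 0.04338, limma). Each list that held one had 1 of 10 (transcription), 1 of 10 (translation factors) and 1 of 20 (assembly factors) called. All 3 calls depended on single libraries and on the processing. With no filter on low values each was lost (adjusted p 0.07275 for Mtrf1l, 0.07731 for Mterf3 and 0.07058 for Ndufaf7, limma). Median-of-ratios scaling ended the calls of Mtrf1l (0.0734) and Mterf3 (0.08274), and rescaling to the nuclear total those of Mterf3 (0.05517) and Ndufaf7 (0.06765; adjusted p, limma). The replicate block ended those of Mtrf1l (0.07319) and Ndufaf7 (0.0943), and a fit without the intensity trend that of Ndufaf7 (0.05983; adjusted p, limma). Mtrf1l was lost without B6 control replicate 2 or BALB/c control replicates 5 or 9. Ndufaf7 was lost without any 1 of 10 libraries, all but B6 control replicate 3 and BALB/c CRS replicate 12, and Mterf3 without any 1 of 8, all but B6 control replicate 9, B6 CRS replicate 14 and BALB/c CRS replicates 12 and 15 (adjusted p up to 0.1466, limma).

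Between strains under restraint, 1 of the 95 was higher and 4 were lower in BALB/c, against 2.37% called higher and 5.33% called lower among all genes. Cox18, which inserts part of mt-Co2's protein into the inner membrane, was higher (13.0 to 16.3 TPM in B6 CRS, 22.7 to 28.7 in BALB/c CRS; log2 0.85, adjusted p 0.003579, limma) and was called in all 22 alternatives. Cox20, a chaperone of the same protein, was lower (36.4 to 39.4 and 21.0 to 27.1 TPM; -0.68, adjusted p 0.0137, limma), as were the complex I assembly factors Ndufaf1 (-0.40, adjusted p 0.04647, limma) and Ndufaf2 (-0.39, adjusted p 0.03986, limma) and the tRNA-processing factor Ptcd1 (-0.54, adjusted p 0.03983, limma). So 4 of the 20 assembly factors and 1 of 8 cutting factors were called. mt-Co2, whose protein Cox18 and Cox20 serve, differed by 0.06 (adjusted p 0.7831, limma). Cox20 was lost without B6 CRS replicate 13 or BALB/c CRS replicates 12 or 13 (adjusted p up to 0.05626, limma). When 1 library at a time was left out, Ndufaf1 was kept only without B6 control replicates 2 or 9 or BALB/c control replicate 10, Ndufaf2 only without B6 control replicates 2 or 9 or BALB/c CRS replicate 12, and Ptcd1 only without B6 control replicates 2 or 9 or BALB/c control replicates 5, 9 or 10 (adjusted p up to 0.1477, limma). The replicate block and rescaling to the mitochondrial total ended the calls of all 3 of these genes, with adjusted p (limma) of 0.0841 and 0.1115 for Ndufaf1, 0.08569 and 0.08895 for Ndufaf2, and 0.06797 and 0.07935 for Ptcd1. Median-of-ratios scaling ended those of Ndufaf1 (0.08668) and Ndufaf2 (0.115), as did a fit without the intensity trend (0.05405 and 0.05457), rescaling to the nuclear total that of Ndufaf2 (0.05254), and no filter that of Ptcd1 (0.06611; adjusted p, limma).

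The remaining lists had no call in any of these comparisons (limma). They were mitochondrial DNA copying and packaging (11 genes), RNA stability and tailing (14 genes), the nuclear programme of mitochondrial biogenesis (8 genes) and the nuclear core subunits of complexes I, III, IV and V (15 genes). The nuclear core subunits are the partners of the mitochondrially encoded proteins. Their summed level was 5087 ± 271 TPM in B6 controls, 5300 ± 490 in B6 CRS, 4909 ± 329 in BALB/c controls and 4923 ± 219 in BALB/c CRS (SD, n = 3 each), with overlapping groups. Their median log2 difference between strains was -0.04 in controls and -0.12 under restraint, where the protein-coding members had 0.21 and 0.09. All genes tested had -0.10 and -0.06.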

How the data were processed

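The authors deposited TPM values in 1 table of 147902 rows and 1 column per library; the unit was read from column sums of 1000000 and the listing of Salmon. Per the submitters' processing notes, the tools included cutadapt 2.9 and Salmon (version not given) and the build GRCm38. The annotation release, strand setting and effective lengths are not given in the sources used here. TPM keeps no depth, so read numbers are unknown and precision rests on the spread between libraries. The labels do not say that the libraries of a group came from separate animals, so p-values measure the spread between these samples.

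Rows were summed per gene name. The 16423 genes that reached 1 TPM in 3 or more libraries were tested on log2(TPM + 1) with limma 3.58.1 in R 4.3.3 (4 group means, 8 residual degrees of freedom, empirical Bayes with an intensity trend, Benjamini-Hochberg adjustment over all genes). All 12 libraries entered every fit, and strain comparisons share control libraries with restraint comparisons. Nuclear copies were found with blastn 2.17.0. The fit was checked on simulated data with known changes.

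The members and gene lists were chosen with earlier results of these data known. Named were all protein-coding and rRNA members, nuclear copies with a group mean of at least 1 TPM, and per list up to 3 called genes in each direction, or those of lowest p where none was called; Supv3l1 and Gm13339 were added after their values were seen. Alternatives covered scaling, pseudocount, filters, copies, trend, a replicate block and leaving out each library. Both strains have a control numbered 9 and CRS mice numbered 12 and 13; these are different mice.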

Additional observations from a re-analysis of the deposited data

How the results depend on the processing

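The differences called between strains (mt-Nd2 in controls, mt-Nd3 under restraint and the 8 nuclear genes) kept their sign in the 22 alternatives. That of mt-Nd3, -0.93 as reported, was however only -0.04 when summed with its copy (adjusted p 0.8908, limma). Differences of members that were not called did not always keep their sign. Between control strains, mt-Nd3 turned from -0.56 to 0.18 when summed with its copy. With restraint in B6, mt-Nd2 (0.03) ranged from -0.12 to 0.16. Members called in controls (1 as reported) were 0 under median-of-ratios scaling, with no filter and with the replicate block, and 3 with a mean of at least 5 TPM. Under restraint (1) they were 0 when summed with copies. Genes called over the whole table moved more. Between strains in controls (777 as reported) there were 1196 after rescaling to the mitochondrial total and 437 with a mean of at least 5 TPM. Under restraint (1264) there were 702 with a mean of at least 5 TPM and 750 with the replicate block. For restraint in B6 (0) there were 2 with a pseudocount of 0.1, 7 with no filter, 1 with a mean of at least 5 TPM and 1 with the block. For restraint in BALB/c (1) there were 0 under median-of-ratios scaling, a pseudocount of 0.1, no filter, a mean of at least 5 TPM and the block. The interaction (0) had 2 with no filter, and the averaged effect (1) had 2 under median-of-ratios scaling, rescaling to the nuclear total, rescaling without Bc1 and 18S, no filter and a mean of at least 5 TPM. The cause was not tested.

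Leaving out 1 library at a time gave ranges of genes called of 428 to 1389 between strains in controls, 539 to 1852 under restraint and 0 to 2 for each restraint comparison, and of members called of 0 to 1 in both strain comparisons and 0 in the rest. The lowest and highest counts came without BALB/c control replicate 10 and B6 control replicate 9, and without B6 CRS replicate 12 and B6 control replicate 9. The rRNA share moved by -0.082 to 1.29 points with restraint in BALB/c, by 0.16 to 1.54 points in the interaction and by -1.28 to 0.096 points between strains under restraint, in each case farthest from the reported value without BALB/c CRS replicate 12. Same-numbered libraries of the 2 strains did not deviate together (correlations of -0.242, -0.029 and -0.036), so the replicate block pairs nothing by design; with it, 565 genes were called between strains in controls, and mt-Nd2 had an adjusted p of 0.07406 (limma).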
